A study of Homo sapiens with 8 samples.

Results

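The genes of WNT signalling examined here are the protein-coding genes whose GENCODE symbols are WNT or FZD followed by a number, together with LRP5, LRP6, LGR5, AXIN1, AXIN2, APC, CTNNB1, TCF7, TCF7L1, TCF7L2 and LEF1. They number 40 of 19617 protein-coding genes on chromosomes 1 to 22 and X, and comprise 19 WNT ligands, 10 Frizzled receptors, 2 co-receptors, 1 R-spondin receptor, 3 genes of the destruction complex, CTNNB1 and 4 TCF/LEF factors. The assay was ATAC-seq, which marks exposed DNA by letting the Tn5 transposase insert adapters there. The cells were HEK293T, a line of human embryonic kidney origin that carries the SV40 large T antigen. There were 4 libraries from cells with genotype H2A(E92K)-lentivector, called E92K below, and 4 from cells with genotype H2A-lentivector, called H2A below. Both groups were labelled with treatment None and grown in DMEM with fetal bovine serum, and the labels name no change to the cells' own H2A genes. The labels speak both of transfection and of a lentivector, and do not say whether replicates were separate cultures, so a p-value here refers only to the spread among these libraries, which may be technical. E92K exchanges a glutamate of the nucleosome's acidic patch for a lysine, and the comparison asks whether accessibility at these genes differed between cells given the mutant and cells given the unaltered histone.

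WNT proteins are secreted lipid-modified ligands that bind Frizzled receptors, and in the canonical branch they also engage the co-receptors LRP5 and LRP6. Without a ligand, a complex built on AXIN and APC marks β-catenin, the product of CTNNB1, for degradation, and with a ligand β-catenin accumulates and joins TCF/LEF factors on DNA. In the developing kidney of the mouse, Wnt9b from the ureteric bud and Wnt4 from the induced mesenchyme drive nephron formation.

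A peak is a stretch of DNA called accessible in 1 library, and a gene is called open in a library when a peak touched the 1000 bp on either side of any transcription start site (TSS). A gene without a peak was not called, which does not show that its chromatin was closed. Coordinates are hg38, counted from 1. Promoter sequence, taken from RefSeq on GRCh38.p14 and identical to hg38 for the 29 of 40 genes matched, is shown for 5 genes that span the range of outcomes. Each run is the 250 bases before the RefSeq start site, and capitals mark CG dinucleotides. WNT9A (chr1:227947933-227948182, minus strand) was open in 8 of 8 libraries, LRP5 (chr11:68312341-68312590, plus strand) in 2, WNT1 (chr12:48978072-48978321, plus strand) in 0, WNT8A (chr5:138083783-138084032, plus strand) in 6 and WNT8B (chr10:100462759-100463008, plus strand) in 0.
WNT9A: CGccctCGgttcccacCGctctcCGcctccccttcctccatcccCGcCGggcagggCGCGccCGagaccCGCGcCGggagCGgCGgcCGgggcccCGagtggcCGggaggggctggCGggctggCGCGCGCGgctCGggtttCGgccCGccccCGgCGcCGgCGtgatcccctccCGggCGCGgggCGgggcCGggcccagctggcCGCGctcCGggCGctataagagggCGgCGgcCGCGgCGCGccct
LRP5: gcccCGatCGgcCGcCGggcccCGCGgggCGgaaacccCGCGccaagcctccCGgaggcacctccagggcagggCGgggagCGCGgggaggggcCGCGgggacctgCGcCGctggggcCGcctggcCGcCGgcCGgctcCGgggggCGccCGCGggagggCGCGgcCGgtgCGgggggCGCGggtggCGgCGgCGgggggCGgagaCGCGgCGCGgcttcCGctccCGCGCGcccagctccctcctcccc
WNT1: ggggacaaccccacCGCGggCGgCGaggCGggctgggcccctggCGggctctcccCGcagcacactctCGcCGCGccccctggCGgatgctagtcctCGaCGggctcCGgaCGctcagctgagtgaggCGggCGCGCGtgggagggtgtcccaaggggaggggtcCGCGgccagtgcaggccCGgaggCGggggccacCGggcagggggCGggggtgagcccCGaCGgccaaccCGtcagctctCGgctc
WNT8A: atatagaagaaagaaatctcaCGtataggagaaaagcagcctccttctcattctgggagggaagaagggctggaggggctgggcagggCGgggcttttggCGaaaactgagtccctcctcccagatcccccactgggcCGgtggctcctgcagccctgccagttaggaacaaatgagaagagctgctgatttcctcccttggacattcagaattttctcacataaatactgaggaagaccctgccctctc
WNT8B: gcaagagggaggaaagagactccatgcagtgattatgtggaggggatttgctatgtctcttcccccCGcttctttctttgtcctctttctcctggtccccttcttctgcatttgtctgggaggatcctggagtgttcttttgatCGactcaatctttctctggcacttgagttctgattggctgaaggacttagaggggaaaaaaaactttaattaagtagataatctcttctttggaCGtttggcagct
The WNT9A run held 44 CG dinucleotides, the LRP5 run 43 and the WNT1 run 29, while those of WNT8A and WNT8B held 4 and 3. A run was called CpG-rich when its GC content was at least 55% and its CG count at least 0.6 times that expected from its C and G content. Of 8815 CpG-rich promoters in the genome 89.2% were open in all 8 libraries at that start site and 6.99% in none, against 36.2% and 54.4% of 6462 other promoters. Of the 29 matched WNT genes 24 were CpG-rich, beside 8815 of 15277 promoters in the genome. Of these 24, 19 (79.2%) were open in all 8 libraries at that start site and 3 (12.5%) in none. Those not open in all 8 were LRP5, WNT1, WNT3, WNT3A and WNT10A, so a CpG-rich start was present at 3 genes without a called peak there. The 5 runs that were not CpG-rich belonged to LEF1 and WNT5A, open in all 8 libraries at these starts, WNT8A, open in 6, and WNT5B and WNT8B, open in none.

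Of the 40 genes, 33 were open in all 8 libraries (82.5%), 3 in some and 4 in none, beside 68.03%, 6.336% and 25.64% of all protein-coding genes. The plot of promoter length by library shows the same zeros in both groups for WNT1, WNT7B, WNT8B and WNT10A. The open genes numbered 35, 36, 34 and 35 in E92K replicates 1 to 4 and 34, 35, 34 and 36 in H2A replicates 1 to 4, which is 35 ± 0.82 against 34.75 ± 0.96 (SD, n = 4 each). The difference of 0.25 genes lay within the spread of either group. Promoter peaks covered a median of 1148 bp in the 33 genes open throughout, against 1128 bp over all genes open throughout. This median was 805 bp for the ligands and 1371 bp for the Frizzled receptors.

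**Figure D1:**
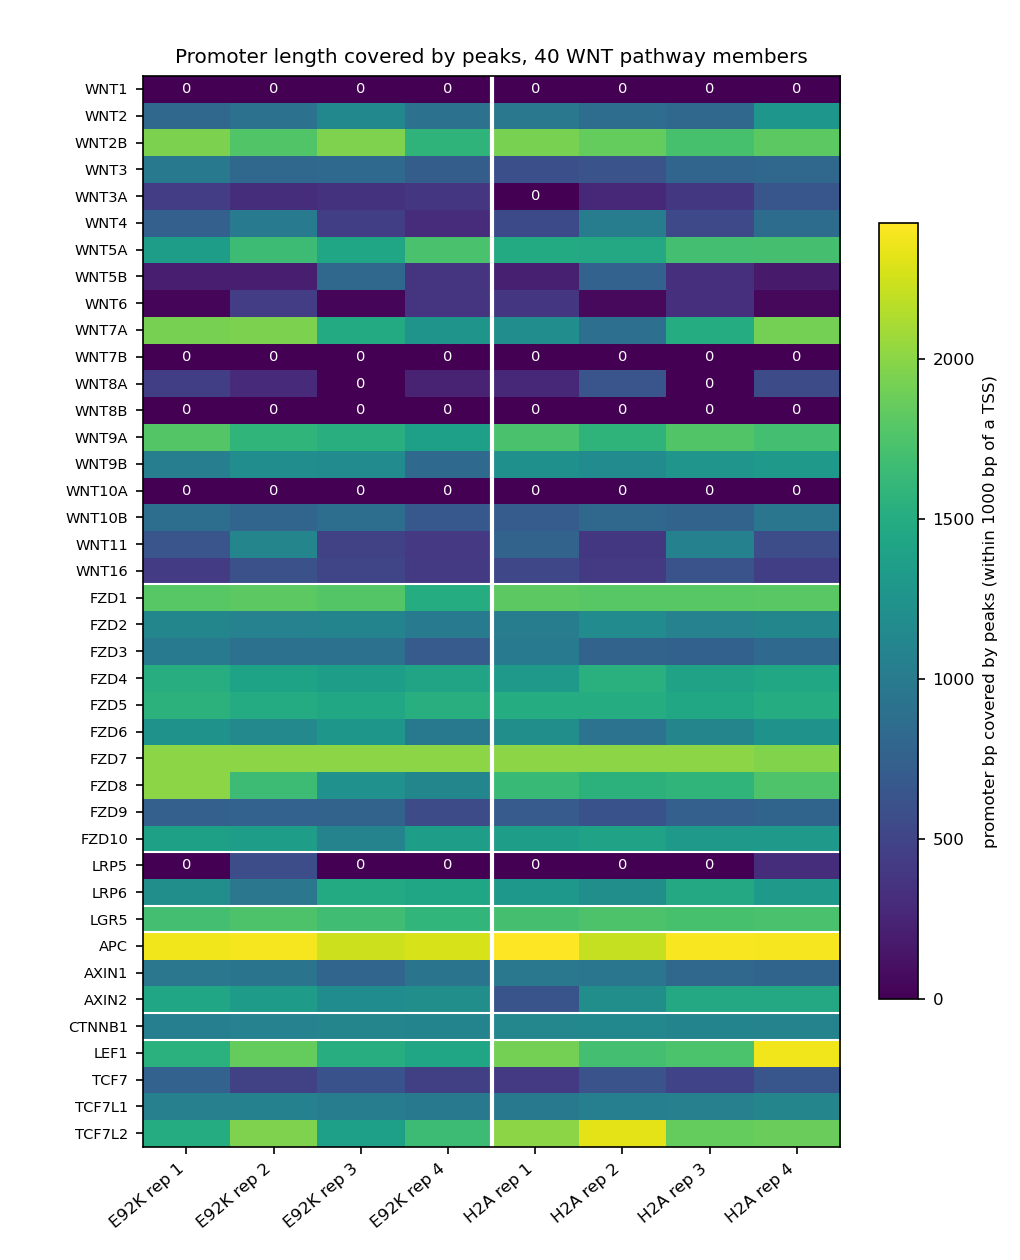
Base pairs of promoter (within 1000 bp of any TSS) covered by peaks in each library, with one row per gene, grouped by role, E92K libraries on the left and H2A libraries on the right. Zeros are printed, and WNT1, WNT7B, WNT8B and WNT10A have 0 in all 8 libraries.

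Across the series, the E92K lists held 55527 to 61850 peaks and the H2A lists 57439 to 62044. The genome-wide background behind the deposited p-values, a proxy for depth, was 2.23 to 2.68 fragments per position in E92K and 2.52 to 2.93 in H2A libraries. Of 11 genes of the embryonic kidney and its nephron progenitors, 9 were open in all 8 libraries, OSR1 in 7 and PAX8 in none. Of 14 markers of blood, endothelium, liver and mature kidney, the liver gene TTR was open in all 8 libraries, the leukocyte gene PTPRC in 1 and 12 in none.

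Among the 19 ligands, 13 were open in all 8 libraries, 2 in some and 4 in none. The highest-ranked ligand promoter was that of WNT6, which had fold enrichments of 9.09 to 11.09 and ranked at percentile 89.9 to 94.9 of its lists by p-value. Fold enrichment and p-value here and below are the authors' values per peak and serve only to describe or rank peaks within a list. The WNT6 region (chr2:218860368-218861542) was centred 1.2 kb into the gene and reached the promoter window by 45, 438, 39 and 367 bp in E92K and by 379, 59, 331 and 54 bp in H2A libraries. The groups overlapped, and with a window of 500 bp WNT6 was open in no library. WNT2B followed at percentile 84.4 to 90.5, with peaks at both of its promoter windows in all 8 libraries.

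WNT9A, a ligand of joint formation, had 1775, 1584, 1530 and 1365 bp of promoter covered in E92K and 1728, 1575, 1762 and 1697 bp in H2A libraries. WNT5A, a ligand best known for β-catenin-independent signalling, had 1360, 1658, 1431 and 1728 bp in E92K and 1481, 1466, 1698 and 1713 bp in H2A libraries. Both were open throughout with overlapping groups, and their peaks ranked at percentile 70 to 84.3. WNT9B and WNT4, the ligands of nephron formation, were also open throughout but ranked lower. WNT9B had 1033, 1187, 1167 and 831 bp in E92K and 1218, 1173, 1261 and 1315 bp in H2A libraries, at percentile 44.9 to 64.4. WNT4 had 747, 1012, 446 and 310 bp in E92K and 544, 1027, 536 and 861 bp in H2A libraries, at percentile 25.3 to 58.1. WNT11, active at ureteric bud tips in the mouse, ranged from 394 to 1100 bp over the 8 libraries. Of the other ligands open throughout, WNT2B ranged from 1580 to 1954 bp, WNT2 from 807 to 1270 bp, WNT10B from 665 to 951 bp, WNT3 from 595 to 978 bp, WNT5B from 177 to 806 bp and WNT16 from 413 to 621 bp. In none of these did the groups separate.

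Some ligand genes were open at one start and not at another. WNT3 had no peak at its canonical start (TSS 46818692 on chromosome 17, minus strand) in any library and carried its peaks at a downstream start (46771447 to 46772287) in all 8. Its RefSeq promoter, which lies at the canonical start, was CpG-rich with 26 CG dinucleotides. WNT5B was open at the most upstream of its 4 promoter windows (TSS 1574657 on chromosome 12) in all 8 libraries. It was open at its canonical start (1629231) in 2 E92K and 1 H2A libraries. The region behind the upstream call (chr12:1575144-1577343) begins downstream of that TSS and overlaps the FBXL14 gene. It reached the window by 204, 205, 167 and 80 bp in E92K and by 211, 514, 325 and 177 bp in H2A libraries. WNT5A was open at 1 of 3 windows and WNT16, a ligand tied to bone density, at 1 of 2, in each case the canonical one. With a window of 500 bp WNT5B was open in 3 libraries and WNT16 in 4.

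Peaks at the promoters of WNT3A and WNT8A were weak. WNT3A, a canonical ligand of somite formation in the mouse, had 439, 315, 356 and 388 bp covered in E92K and 0, 267, 396 and 644 bp in H2A libraries, at percentile 5.6 to 29.9. WNT8A had 450, 284, 0 and 244 bp in E92K and 280, 640, 0 and 555 bp in H2A libraries, at percentile 5.2 to 29.3. The 3 empty libraries were H2A replicate 1 for WNT3A and replicate 3 of each group for WNT8A. Among peaks with a −log10 q of 5 or more, WNT3A was open in 2 E92K and 1 H2A libraries and WNT8A in 1 E92K library.

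The 4 ligands open in no library differed in what lay nearby. WNT7B, a ligand of the renal collecting duct in the mouse, had a peak 1121 to 1444 bp upstream of its canonical start in all 8 libraries, with folds of 7.95 to 10.66 at percentile 86.8 to 94.3. It was therefore open in all 8 libraries with a window of 2000 bp. WNT10A, a ligand of tooth and skin development, had its nearest peak 2078 to 2721 bp downstream, in its own intron. WNT8B, a ligand of the developing forebrain, had its nearest peak 8 to 18.5 kb away. The nearest peak to WNT1, a ligand of midbrain patterning, lay 6290 to 6492 bp upstream and belonged to the WNT10B promoter. WNT1 had no peak over its 4.3 kb span either.

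Several ligand genes lie beside each other, and neighbours could differ in state. WNT1 and WNT10B, divergent on chromosome 12 with 6.6 kb between the genes, were open in 0 and 8 libraries. WNT6 and WNT10A, in tandem on chromosome 2 with 6.6 kb between them, were open in 8 and 0. WNT3 and WNT9B, with 46 bp between the annotated genes on chromosome 17, were both open in 8. The WNT3 start nearest to WNT9B (46833084) was open in 0, and its peaks lay at the downstream start named above. WNT3A and WNT9A, 59.1 kb apart on chromosome 1, were open in 7 and 8.

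All 10 Frizzled genes, which encode the seven-pass receptors of WNT ligands, were open in all 8 libraries. FZD5, a receptor of eye and gut, led at percentile 97.7 to 99.4 and had 1554, 1491, 1447 and 1515 bp of promoter covered in E92K and 1503, 1499, 1442 and 1503 bp in H2A libraries. FZD1 stood at percentile 95.5 to 98.6 with 1798, 1817, 1771 and 1500 bp in E92K and 1816, 1793, 1792 and 1807 bp in H2A libraries. FZD7 had peaks over 2001 bp, its whole window, in all 4 E92K libraries and over 2001, 2001, 2001 and 1966 bp in H2A libraries. The E92K and H2A values of FZD5 and FZD1 overlapped, and FZD7 filled its window in 7 of 8 libraries, so this length could show little difference there. FZD8 varied most in length, with 2001, 1660, 1222 and 1112 bp in E92K and 1633, 1553, 1587 and 1758 bp in H2A libraries, and FZD10 ranked lowest, at percentile 42.1 to 57.6. The remaining receptors, FZD2, FZD3, FZD4, FZD6 and FZD9, ranged from 554 to 1542 bp. The plot of percentiles by gene shows the Frizzled promoters other than FZD10 above percentile 70 of every list, while open ligand promoters ran from percentile 5.2 to 94.9.

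**Figure D2:**
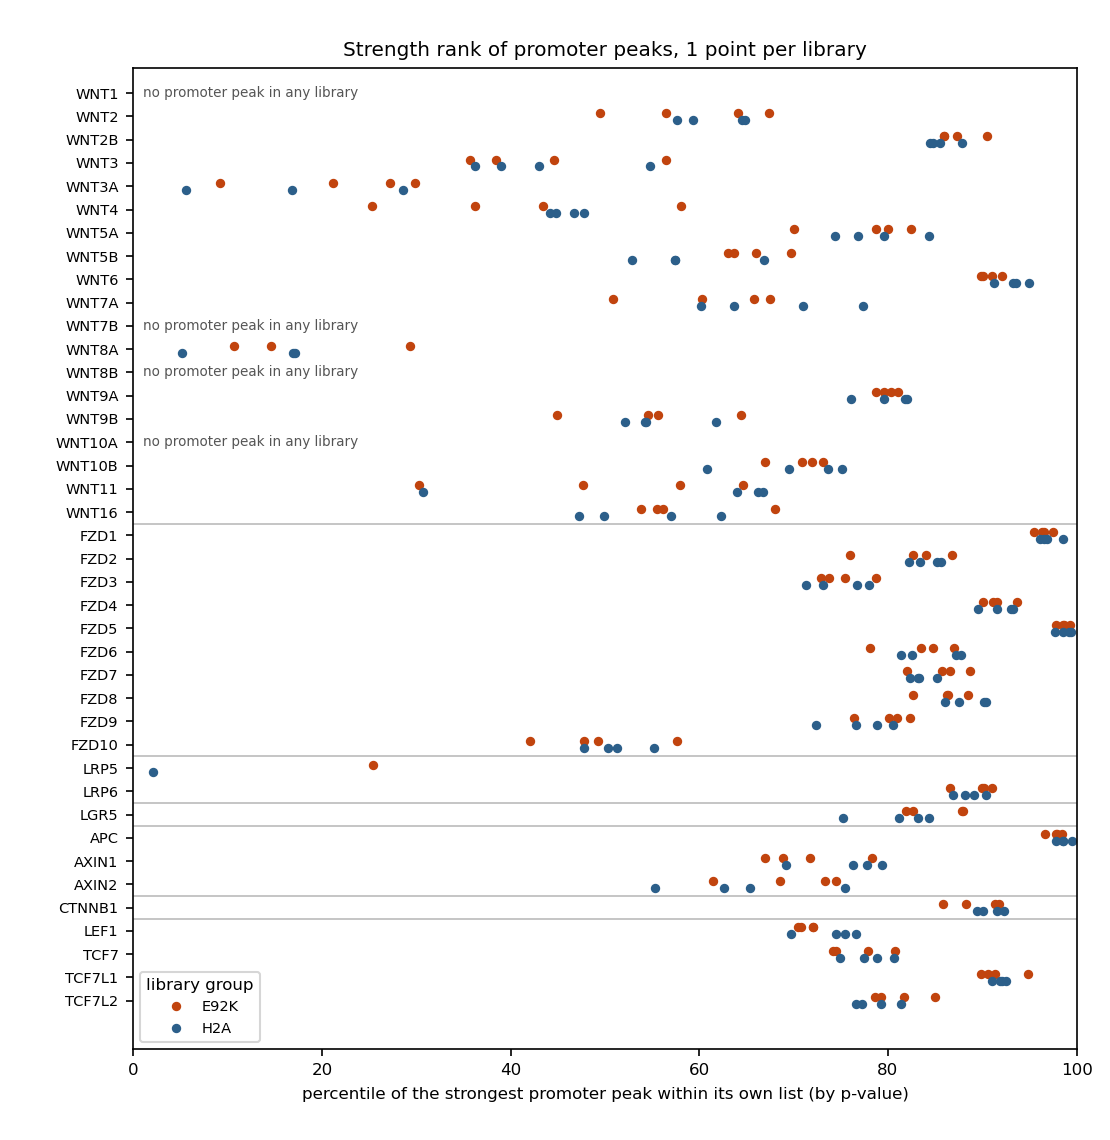
Percentile of each gene's strongest promoter peak within its own list, ranked by the deposited p-value, with 1 point per library and E92K drawn above H2A in each row. FZD5, FZD1 and APC stand near 100, WNT3A, WNT8A and LRP5 below 30, and 4 ligands have no promoter peak.

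The co-receptors parted. LRP6 was open in all 8 libraries, with 1201, 961, 1479 and 1437 bp in E92K and 1293, 1197, 1463 and 1303 bp in H2A libraries, at percentile 86.6 to 91. LRP5, a co-receptor known for its role in bone mass, was open in E92K replicate 2, with 568 bp, and H2A replicate 4, with 319 bp, and in no other library. These are the libraries with the highest background of their groups, 2.68 in E92K and 2.93 in H2A, and the part of depth in the calls was not tested. LRP5 was thus a CpG-rich promoter with called peaks only at percentile 25.4 and 2.1. LGR5, a receptor for R-spondins and a marker of intestinal stem cells, had 1702, 1743, 1683 and 1597 bp in E92K and 1707, 1748, 1719 and 1732 bp in H2A libraries. Its promoter region overlaps the annotated span of TSPAN8 on the other strand.

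Genes of the destruction complex and its substrate were open in all 8 libraries. APC, a scaffold and tumour suppressor, had peaks at both promoters, the upstream one at −30.1 kb from the canonical start (chr5:112707157-112708366, fold 11.46 ± 0.57, SD, n = 8) and the other at it (chr5:112737234-112738641, fold 10.57 ± 0.5). Together they covered 2369, 2390, 2237 and 2278 bp in E92K and 2423, 2208, 2403 and 2390 bp in H2A libraries. AXIN1, the scaffold of the complex, ranged from 780 to 973 bp. AXIN2, a feedback target of the pathway, had 1422, 1333, 1177 and 1202 bp in E92K and 634, 1196, 1459 and 1459 bp in H2A libraries, and its second window had no peak. CTNNB1 was steady at 1042, 1071, 1102 and 1093 bp in E92K and 1124, 1135, 1095 and 1083 bp in H2A libraries, all at 1 of its 3 windows. In none of the 4 genes did the groups separate.

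All 4 TCF/LEF genes, which encode the DNA-binding partners of β-catenin, were open in all 8 libraries. TCF7L1, often a repressor, was the highest in rank at percentile 89.9 to 94.8, with 977 to 1107 bp. TCF7 ranged from 409 to 765 bp. LEF1 had 1548, 1852, 1505 and 1420 bp in E92K and 1912, 1699, 1739 and 2373 bp in H2A libraries. TCF7L2, the main TCF of the gut, had 1498, 1952, 1366 and 1663 bp in E92K and 2004, 2320, 1848 and 1873 bp in H2A libraries over both of its open windows. E92K replicate 2 lay inside the H2A range for both genes, and the other E92K libraries lay below it.

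Of the 40 genes, none was called as differing between E92K and H2A in promoter presence. After Benjamini-Hochberg adjustment of Fisher's exact test 0 of the 40 were called and 0 were under 0.05 before it. Of all 19617 genes 0.0% were called. The 33 genes open in all 8 libraries and the 4 open in none could show no difference in presence. The smallest possible Fisher p is 0.0286, so adjustment could call a gene only if a large share of all genes reached it. This test therefore says little about these genes. A split of 4 libraries against 0 was seen in 0 of the 40 genes, beside 0.0306% of all genes (0.0051% in E92K alone and 0.0255% in H2A alone). A difference of 3 or more libraries was also seen in 0 of the 40, beside 0.347% of all genes. For promoter covered length, the E92K mean was higher in 13 and lower in 23 of the 36 genes with a promoter peak, with a median difference of −18 bp. Over all 14588 genes tested it was higher in 37.72% and lower in 62.08%, with a median of −18.5 bp, so the lean towards shorter coverage was that of the whole table. E92K libraries had lower background and fewer peaks on average, and the part of depth in this lean was not tested. The groups did not overlap in 0 of the 36 genes, beside 3.82% of all genes tested (0.788% higher and 3.03% lower in E92K).

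By the exact two-sided permutation test over 70 assignments, whose smallest p is 0.0286, 0 of 36 genes passed adjustment, 0 had an unadjusted p under 0.05, and 0.0% of all genes were called. The smallest exact permutation p among the 36 was that of WNT9B, 0.0571 (adjusted p = 0.845), with a mean of 1054.5 ± 164 bp in E92K and 1242 ± 60.6 bp in H2A libraries (SD, n = 4 each). TCF7L2 averaged 1619.8 ± 253 bp in E92K and 2011 ± 217 bp in H2A libraries (exact permutation p = 0.0857, adjusted p = 0.877), and LEF1 1581 ± 188 bp in E92K and 1931 ± 309 bp in H2A libraries (exact permutation p = 0.0857). With limma on the same lengths no adjusted p was under 0.05 (0 of 36), and TCF7L2 and WNT9B were the 2 of 36 under it before adjustment, beside 890 of all 14588 genes, a similar share. Without E92K replicate 2 the groups did not overlap in 4 genes, TCF7L2, LEF1, LGR5 and WNT9B, all lower in E92K, beside 7.65% of all genes. Without E92K replicate 4 they did not overlap in 1 gene, WNT3, higher in E92K, beside 6.32% of all genes, and without H2A replicate 2 in 1 gene, WNT9B, lower in E92K, beside 7.23%.

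Over gene spans, from the first to the last annotated base, peaks covered 75474, 76911, 71598 and 65716 bp of the 40 genes in E92K and 70847, 67838, 69787 and 75892 bp in H2A libraries. The number of peaks was 109.8 ± 4.03 in E92K and 106 ± 4.69 in H2A libraries (SD, n = 4 each). Both ranges overlapped. The E92K mean was higher in 22 and lower in 17 of the 39 genes with a span peak, with a median of 4.25 bp, against 37.91% higher and 61.81% lower and a median of −27.5 bp over all 16322 genes tested. The groups did not overlap in 2 of the 39 genes, LRP5 and WNT7A, both higher in E92K, beside 4.16% of all genes tested (0.944% higher and 3.22% lower in E92K). Neither passed adjustment (exact two-sided permutation test, 0 of 39 passed and 2 unadjusted; 0.0% called over all genes).

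LRP5 (chr11:68312591-68449275, plus strand) had peaks over 2479, 1961, 2514 and 1855 bp in E92K and 1563, 1108, 1494 and 1538 bp in H2A libraries. The means were 2202 ± 343 bp in E92K and 1426 ± 214 bp in H2A libraries (SD, n = 4 each), a difference of 776.5 bp (exact permutation p = 0.0286, adjusted p = 0.687). Its coverage was spread over 10 regions, of which 1, an intronic region 134.7 kb into the gene (chr11:68446955-68447638, fold 8.96), was present in all 8 libraries. A region 71.4 kb into the gene was present in 4 E92K and 2 H2A libraries, and a region 2.3 kb into it in 2 E92K and 4 H2A libraries. Regions 1.2 kb and 129.2 kb into the gene were each present in 2 E92K and 0 H2A libraries. Apart from the region at 134.7 kb, LRP5 regions reached at most percentile 38.1 of a list. With peaks of −log10 q of at least 5 the LRP5 groups overlapped and the difference was 105 bp (exact permutation p = 0.686).

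WNT7A (chr3:13816258-13880071, minus strand), a ligand of limb and reproductive tract patterning, had 1752, 1688, 1417 and 1235 bp of its span covered in E92K and 1068, 919, 1143 and 1205 bp in H2A libraries. The means were 1523 ± 241 bp in E92K and 1084 ± 123 bp in H2A libraries (SD, n = 4 each), a difference of 439 bp (exact permutation p = 0.0286, adjusted p = 0.687). All of the E92K coverage came from the region at its start (chr3:13878320-13881031), which extends upstream of the gene. Over that whole region the groups overlapped, with 2679, 2633, 2080 and 1871 bp in E92K and 1774, 1250, 2103 and 1917 bp in H2A libraries. They also overlapped in its promoter window, with 1928, 1946, 1484 and 1256 bp in E92K and 1186, 889, 1496 and 1917 bp in H2A libraries (exact permutation p = 0.314). With peaks of −log10 q of at least 5 the span difference was 844 bp. This filter kept or dropped whole peaks. The promoter window held 1 peak in E92K replicates 1 and 2 and H2A replicate 4, and 2 in the other libraries. The part of this splitting in the difference was not tested.

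With limma on span length 0 of the 39 were called (1 of all 16322 genes), and LRP5, WNT7A and WNT10A were the 3 of 39 under 0.05 before adjustment, beside 1153 of all 16322 genes, a similar share. WNT10A had 1670, 1951, 1597 and 1434 bp in E92K and 2216, 1691, 2109 and 2568 bp in H2A libraries, and the groups overlapped through replicate 2 of each. Leaving out H2A replicate 2 or 3 raised the exact permutation p of LRP5 to 0.0571, and leaving out any 1 H2A replicate did so for WNT7A, with the groups still apart in each case. Without E92K replicate 2 the groups did not overlap in 5 genes, LRP5 and WNT7A, higher in E92K, and WNT10A, APC and WNT9B, lower in E92K, beside 8.65% of all genes.

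**Figure D3:**
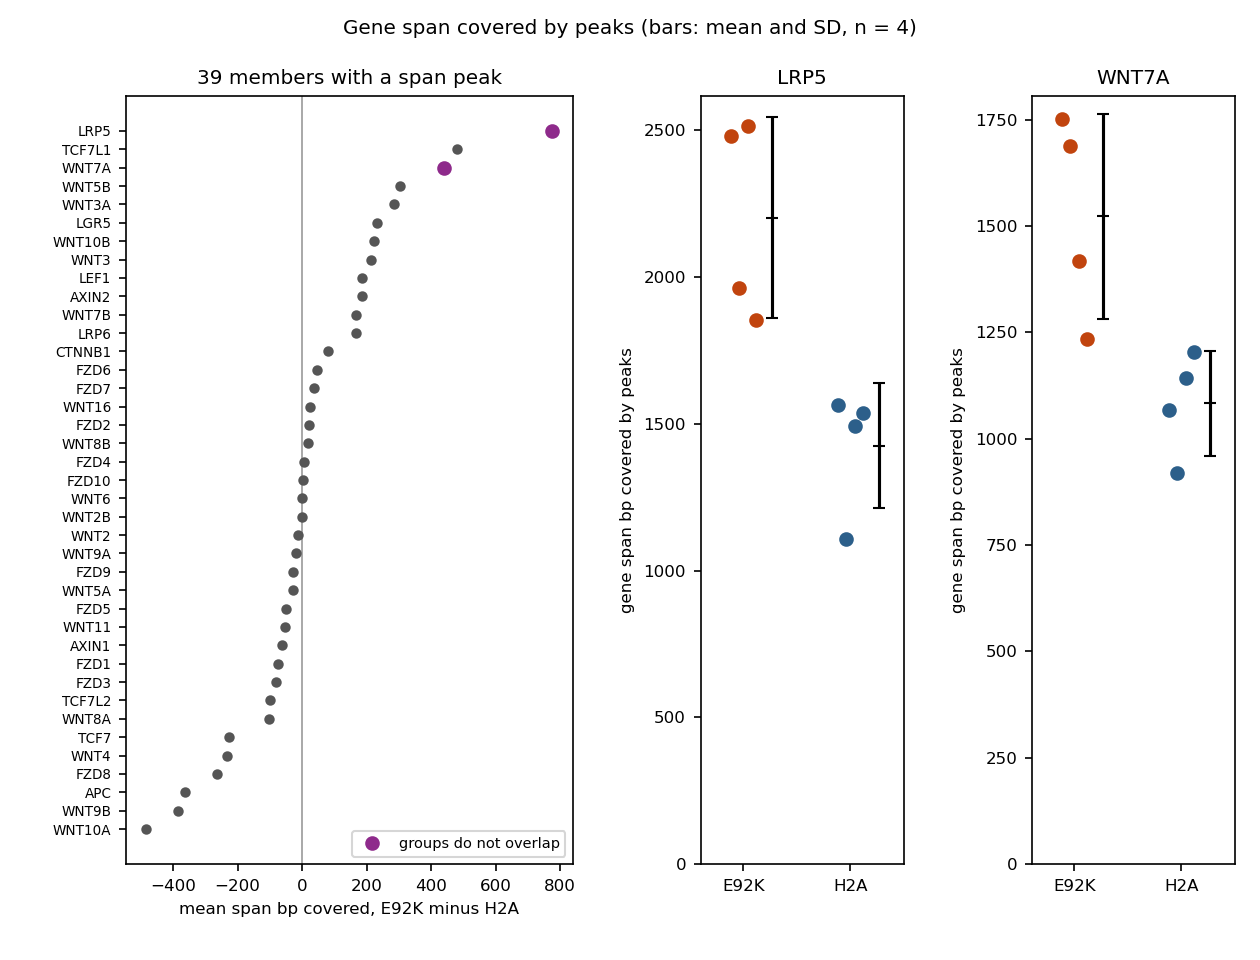
Left, mean gene span length covered by peaks, E92K minus H2A, in bp for 39 genes, with the 2 genes whose groups do not overlap enlarged. Centre and right, the covered bp in each library for LRP5 and WNT7A, with bars for mean and SD (n = 4), all E92K libraries above all H2A libraries.

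Merging the 8 lists placed 157 accessible regions on promoters and spans of the 40 genes, of 96872 in all. Of these 75 (47.77%) were present in all 8 libraries and 36 (22.93%) in 1, against 38.09% and 26.51% of all regions. They comprised 46 at promoters, 37 of them present in all 8 libraries, 104 in introns, 35 of them present in all 8, 6 in exons and 1 at the end of FZD9. The 24 co-receptor regions held 3 that were present in all 8 libraries and 11 seen in 1, while the 42 TCF/LEF regions held 23 and 8. None of the 157 regions was present in 4 libraries of a group and 0 of the other, and none differed by 3 or more libraries, beside 0.139% of all regions in E92K alone, 0.184% in H2A alone and 2.53% differing by 3 or more. By Fisher's exact test 0 passed, 0 were under 0.05 unadjusted, and the percentage called over all regions was 0.0.

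TCF7L2 was the richest in steady regions, with 11 of 14 present in all 8 libraries over its 217.4 kb. LEF1 and LRP6 also had 14 regions each, of which 5 and 2 were present in all 8 libraries. Of the LRP6 regions 8 were seen in 1 library only, and 4 overlap the span of BCL2L14, which is annotated on the other strand. WNT5B had 11 regions, 6 of which overlap the FBXL14 gene and 2 lie at the FBXL14 promoter, so their assignment to WNT5B is uncertain. FZD1, FZD2, FZD4, FZD5, FZD6, FZD8, FZD10, WNT2, WNT6 and WNT9A had 1 region each, as the plot of regions by distance shows. In each gene this region lay at the promoter and was present in all 8 libraries. These genes span only 3.3 to 47.7 kb, and the numbers of regions were not adjusted for gene length. The WNT2 region also overlaps the annotated span of CFTR.

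**Figure D4:**
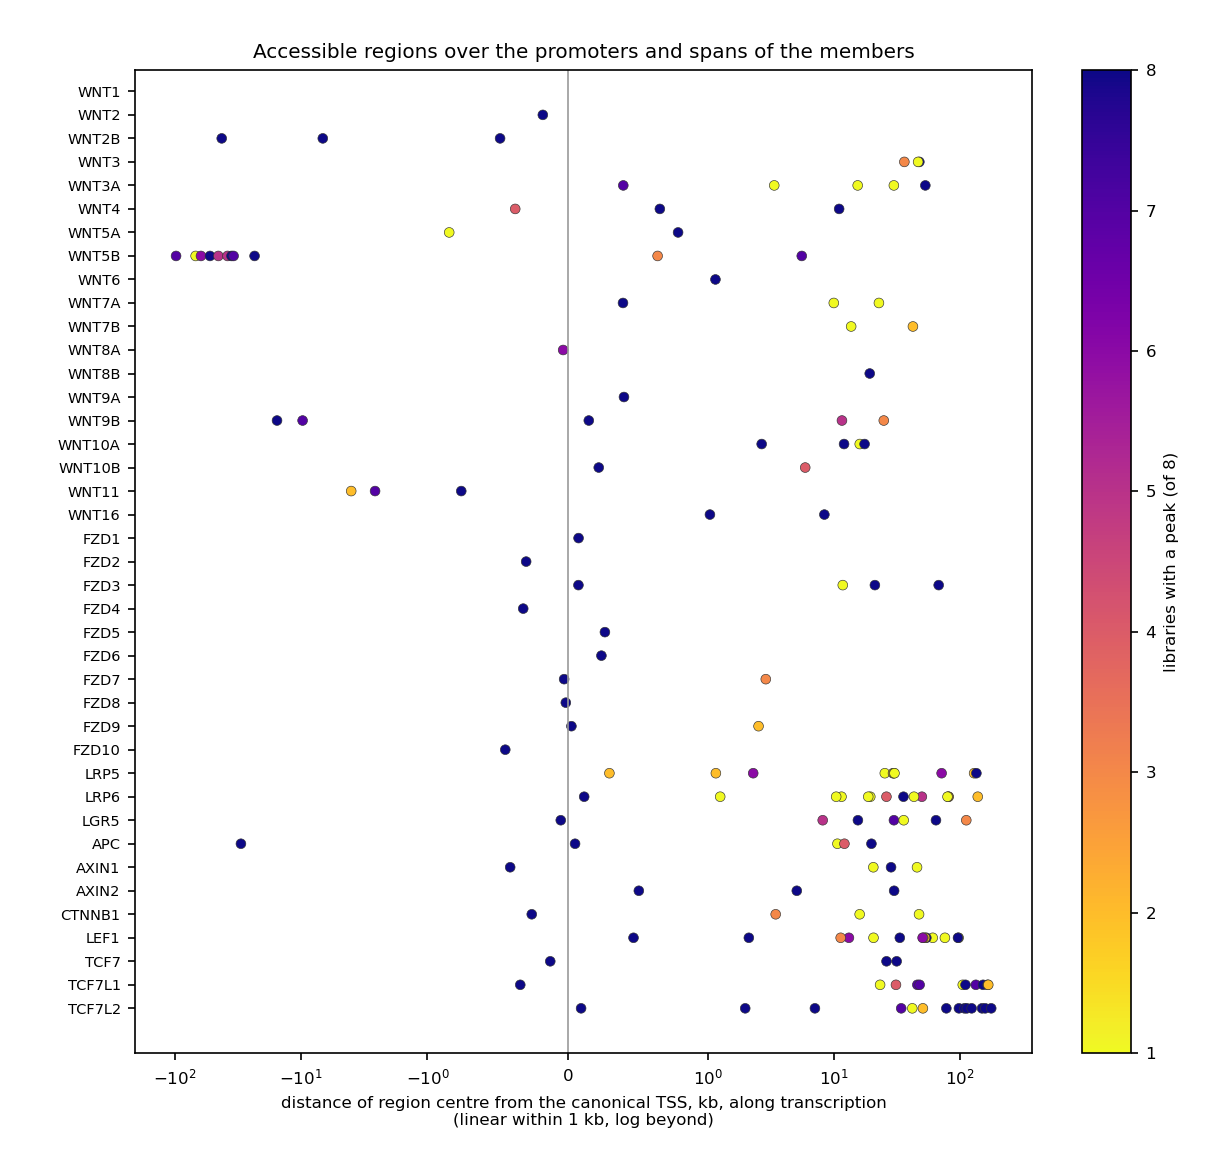
Accessible regions of each gene by the distance of their centre from the canonical TSS in kb along transcription (linear within 1 kb, logarithmic beyond), coloured by the number of libraries with a peak. Promoter regions near 0 are mostly dark, meaning present in all 8 libraries, and LRP5 and LRP6 carry many regions seen in 1 or 2.

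Away from promoters, 2 regions were among the 10 best-ranked of the set. A region in the last exon of WNT3A (chr1:228059383-228060686), 53 kb from its start and mostly over annotated UTR, had a fold of 9.74 ± 0.4 (SD, n = 8) and stood at percentile 96.1 to 98.4. The WNT3A promoter itself reached at most percentile 29.9. The other was an intronic region of TCF7L1 152.2 kb into the gene (chr2:85285318-85285921), with a fold of 13.12 ± 1.07 at percentile 86.7 to 93.4. Both were present in all 8 libraries. The remaining 8 of the 10 were promoter regions of FZD5, APC (both promoters), FZD1, TCF7L1, WNT6, FZD4 and LRP6.

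The sequence read by TCF/LEF factors was sought on both strands within 100 bp of summits as the word CTTTG followed by 2 letters that are each A or T. On the other strand it reads CAAAG after such letters, and SOX factors, which have a related DNA-binding domain, can also bind this form. A word was found at 17 of the 157 regions (10.8%), beside 12.8% of all 96872 regions. Among regions at the promoter of any gene it was found at 4 of 48 (8.3%), beside 5.4% of 15259 in the genome. These 4 lay at FZD7, WNT16, TCF7L2 and AXIN2. The 29 RefSeq promoter runs of 250 bases held it in 0 cases, beside 9.6% of 15277 such promoters. FZD7 and AXIN2 were among the genes without a matched run. Away from promoters and in all 8 libraries, 5 of 37 regions of the WNT genes held a word (13.5%), beside 12.5% of 23873 such regions in the genome. All 5 lie in introns, and the one in FZD3, centred 67.7 kb into the gene, ranked at percentile 2.9 to 53.1. Sequence of hg38 on the plus strand is shown for the other 4, with the word in capitals, to give the word in its surroundings. They come from TCF7L2 regions centred 7.1 kb (sequence at chr10:112956512-112956572) and 123.6 kb (chr10:113073678-113073738) from the canonical start, from an APC region centred at 19.8 kb (chr5:112757798-112757858) and from an LGR5 region centred at 64.4 kb (chr12:71504131-71504191).
TCF7L2 region at 7.1 kb: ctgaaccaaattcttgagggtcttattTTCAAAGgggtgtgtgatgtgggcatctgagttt
TCF7L2 region at 123.6 kb: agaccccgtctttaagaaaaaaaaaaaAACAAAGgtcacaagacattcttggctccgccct
APC region at 19.8 kb: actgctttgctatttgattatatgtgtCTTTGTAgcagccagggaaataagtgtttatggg
LGR5 region at 64.4 kb: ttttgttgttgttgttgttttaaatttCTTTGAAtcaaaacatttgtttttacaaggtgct
The LGR5 region had the highest rank of the 4, at percentile 75.6 to 83.7, and the TCF7L2 region at 7.1 kb the lowest, at percentile 14.6 to 41.7. These matches describe letters near summits and do not show that a factor was bound.

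Of 72 other genes of the pathway 62 were open in all 8 libraries (86.11%), 7 in some and 3 in none. All 12 genes of β-catenin-independent signalling were open throughout, as were 13 of 15 genes of the cytoplasmic relay, 11 of 12 nuclear cofactors and 10 of 12 transcriptional targets. Of 3 genes listed for ligand secretion and inactivation, 2 were open throughout and the third was NOTUM. Genes in more than one list are counted in each. The R-spondin branch had 7 of 8 genes open throughout and RSPO4, an R-spondin of nail development, in none. Antagonists, most but not all of them secreted, were open throughout in 11 of 15 cases. SFRP1 was open in 7 libraries, SFRP2 in 3, and DKK4 and SOST, the sclerostin gene, in none. DVL1, a Dishevelled relay gene, and PYGO1, a β-catenin cofactor, were each open in 3 E92K and 4 H2A libraries, and ASCL2, a target in intestinal stem cells, in 4 E92K and 3 H2A libraries. NOTUM, which encodes a secreted enzyme that inactivates WNT ligands, was open in 3 E92K and 1 H2A libraries, and APC2, a relative of APC, in 0 E92K and 2 H2A libraries. None of the 72 passed Fisher's exact test, adjusted or unadjusted, and the smallest unadjusted p was 0.429, for APC2. The 62 genes open in all 8 libraries and the 3 open in none could show no difference in presence. In promoter length the groups did not overlap at LGR6, TLE1 and BTRC, all lower in E92K, beside 3.82% of all genes tested. In span length they did not overlap at TLE3 and CSNK1D, both higher in E92K, beside 4.16%. No gene passed adjustment by the exact permutation test for either length.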

How the data were processed

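ATAC-seq of HEK293T cells, 4 E92K and 4 H2A libraries grouped by sample title, was deposited as 1 peak list per library, called per sample. Reads were aligned to hg38, per the labels. How reads were aligned, shifted for Tn5 and freed of duplicates, and which caller was used, is not given in the sources used here. Such steps can change peak widths and numbers. In the deposited lists the score is an integer for each peak, the fold enrichment a ratio of a summit to its local background, and the p and q columns −log10 values, as the authors' caller wrote them. Read totals were not analysed here, and the smallest background recovered from fold and p-value stood for relative depth.

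A distinct interval was 1 peak, represented by its strongest summit. Promoters were taken from basic protein-coding transcripts of GENCODE version 44, 1000 bp on either side of each TSS. The 8 lists were merged into 96872 regions. Presence was tested with Fisher's exact test and covered length with an exact two-sided permutation test over 70 assignments. Both were run over all genes with Benjamini-Hochberg adjustment, and were tried on simulated data first. The simulated data held only large, complete changes and did not test the adjusted calls. limma 3.58.1 (R 4.3.3) was the alternative for lengths. Python 3.11.15, numpy 2.4.6, pandas 2.3.3, scipy 1.17.1 and pysam 0.24.0 were used. The genes and lists were chosen with earlier results of these data known. By rule, all 40 genes could be named, and other pathway genes only when open in 1 to 7 libraries or differing by 3 or more. Regions named by rule were the 10 best-ranked among those in every library. Other named regions and promoter windows were chosen after their values were seen. So were the pathway genes open in no library and those named for covered length. Alternatives were the promoter width, canonical TSS only, an overlap of 100 bp, a −log10 q of at least 5, equal peak numbers, and leaving out each library.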

Additional observations from a re-analysis of the deposited data

Results flagged for a closer look

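Within groups of 4 libraries, 1 library stood far from the other 3 (Dixon's criterion) in 19 of 149 groups of covered lengths tested. The criterion is set for about 1 in 20 with normally distributed values. Covered lengths can be tied or capped, and promoter and span of a gene share peaks. The count can therefore not be read as an excess over chance. At promoters of Frizzled genes, E92K replicate 4 had 554 bp at FZD9 against 740 to 770 bp in the other E92K libraries, and 1500 bp at FZD1 against 1771 to 1817 bp. E92K replicate 3 had 1081 bp at FZD10 against 1352 to 1373 bp. H2A replicate 4 had 1966 bp at FZD7 against 2001 bp in the other H2A libraries, and H2A replicate 3 had 1442 bp at FZD5 against 1499 to 1503 bp. The APC promoters had 2208 bp in H2A replicate 2 against 2390 to 2423 bp in the other H2A libraries. The LRP5 promoter was covered in 1 library per group, with 568 bp in E92K replicate 2 and 319 bp in H2A replicate 4.

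Over gene spans, E92K replicate 4 was again the library apart at 4 genes. It had 1312 bp at WNT9A against 1528 to 1560 bp in the other E92K libraries, 218 bp at FZD9 against 407 to 416 bp, 678 bp at FZD1 against 976 to 986 bp, and 1020 bp at FZD5 against 973 to 979 bp. Its list was the shortest, with 55527 peaks, and the part of list length in these values was not tested. E92K replicate 2 had 2459 bp at WNT3A against 1469 to 1602 bp. H2A replicate 1 had 987 bp at FZD1 against 976 bp in the other H2A libraries, and 2307 bp at WNT16 against 2580 to 2623 bp. H2A replicate 2 had 1108 bp at LRP5 against 1494 to 1563 bp. H2A replicate 3 had 2580 bp at FZD3 against 1841 to 1937 bp. H2A replicate 4 had 1430 bp at WNT8B against 1532 to 1535 bp, and 245 bp at WNT7B against 0 bp.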

How the results depend on the processing

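Under the alternatives run, 0 of the 40 genes and 0 of their regions passed adjustment in any comparison. With promoters of 500 bp on either side, 6 genes rather than 3 were open in some libraries only, as WNT4, WNT5B and WNT16 joined WNT3A, WNT8A and LRP5. The genes open in all 8 libraries then numbered 29 of 40 rather than 33, beside 66.61% rather than 68.03% of all protein-coding genes. They numbered 31 with the canonical TSS alone, beside 65.8%, and 34 with promoters of 2000 bp, beside 69.74%. The groups did not overlap in promoter length for 1 gene with 500 bp (APC, lower in E92K, beside 2.8% of all genes) and for 1 gene with the canonical TSS alone (TCF7L2, lower in E92K, beside 3.87%), against 0 as reported. Leaving out 1 library gave 0 to 4 such genes, beside 6.16 to 7.65% of all genes. For gene span length the count was 1 at a −log10 q of at least 5, where WNT7A remained and LRP5 did not (4.07% of all genes), against 2 as reported. It was 2 to 5 when 1 library was left out, beside 6.51 to 8.65% of all genes. The difference in open genes per library, E92K minus H2A, was −0.08 to 0.67 when 1 library was left out, and so did not keep its sign. In limma with the replicate block 0 genes passed for promoter or span length, and LRP5 span length had an adjusted p of 0.613. For promoter length with this block, TCF7L2, lower in E92K, had a limma p of 0.0018 (adjusted p = 0.822). It was the 1 of 36 genes under 0.05 before adjustment, beside 819 of all 14588. Libraries of the same number did not deviate together (r = −0.162, −0.03, −0.013 and −0.153 across genes for numbers 1 to 4), so the numbers were not taken as pairs. Of all values recomputed, 323 kept their side of the threshold or moved by less than the limits set, 31 moved by more, and 7 lost an unadjusted p under 0.05. With 4 libraries a group, no exact p falls below 0.0286, so a single gene cannot pass adjustment on its own. The calls at LRP5, WNT3A and WNT8A rested on weak peaks, and the part of depth in them was not tested.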
